A study of Mus musculus with 3 samples.

Results

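Malat1, Neat1, Kcnq1ot1, Gm26917, Gm42418 and Tug1 are annotated as long noncoding RNA genes, RNAs of messenger-like length that encode no known protein. They were taken by gene symbol from the deposited tables, and all 6 were found among the 55536 annotated genes. They were chosen by their expected count and TPM in these same libraries, which were already known, so the levels below are a description and carry no test. The libraries hold total RNA depleted of ribosomal RNA, made from 1 µg of cytosolic RNA of macrophages grown from bone marrow. The cells came from C57BL/6J mice, with no genetic change named in the labels, and had been treated for 60 min with 100 ng/ml of lipid A, the lipid anchor of bacterial endotoxin that Toll-like receptor 4 senses. All 3 libraries belong to this 1 group and are numbered as biological replicates 1, 2 and 3. Each has its own biosample, but the donor entry they share names only the strain, and sex and age were not collected. Neither untreated cells nor nuclear RNA were analysed here, so neither induction nor the share of each RNA that stays in the nucleus was measured.

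Most messenger RNAs leave the nucleus soon after they are made, while some long noncoding RNAs stay there and work at chromatin or in nuclear bodies. Malat1 is concentrated in nuclear speckles, where splicing factors gather, and Neat1 is the RNA around which paraspeckles form. Kcnq1ot1 spreads over its own chromosome domain and silences imprinted genes in cis. Tug1 is found in both compartments. In a cytosolic extract, RNAs of this kind are commonly looked at to see how much nuclear RNA the extract holds. In such a bulk extract, fewer cells with an RNA and less RNA per cell cannot be told apart.

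The gene tables assigned 63944236, 71989793 and 69305836 counts to annotated genes in replicates 1, 2 and 3, and a count of 0 would allow up to 3 counts. That is 0.0469, 0.0417 and 0.0433 CPM, the count scaled to a common library total. These floors and the intervals below cover counting error only. All 8 macrophage markers were detected, at means of 21.7 to 5032 TPM, a length-scaled abundance. Of 24 markers of other cells (neutrophil, lymphoid, erythroid, stromal and endothelial), 2 reached 1 TPM, the neutrophil genes S100a9 and S100a8, at means of 15.9 and 10.1 TPM, and 3 were at 0 counts everywhere. Summed over the 24, these markers reached 14.1, 19.7 and 15.2 CPM. The 10155 long noncoding RNA genes together held 0.896, 0.526 and 0.730% of the counts in replicates 1, 2 and 3. The 6 genes described here supplied 48.7, 25.3 and 43.7% of those noncoding counts. Without them the noncoding share was 0.460, 0.393 and 0.411%, still highest in replicate 1 and lowest in replicate 2. The 6 genes were chosen with their counts known, so the smaller difference without them is not read as a result.

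By TPM, which allows genes of different length to be compared, the mean levels ran from Malat1 through Gm26917, Gm42418, Neat1 and Tug1 down to Kcnq1ot1. Neighbours in that order were mostly not separated by more than the spread between libraries. Among neighbours, only the ranges of Tug1 and Kcnq1ot1 did not overlap. Malat1 exceeded Gm26917 in 3 of 3 libraries and Gm42418 exceeded Neat1 in 3 of 3. Neat1 exceeded Tug1 in 2 of 3, and Gm26917 exceeded Gm42418 in only 1 of 3, so its second place rests on replicate 1. Without replicate 1, Gm26917 averaged 21.2 TPM, against 126 TPM over all 3 libraries. Gm42418 averaged 52.4 TPM without replicate 1, against 89.4 TPM, and Kcnq1ot1 0.015 TPM, against 0.0367 TPM. TPM was lower in the second deposited quantification, whose columns are named as kallisto writes them. There Malat1 averaged 119 TPM, Gm26917 56.3 TPM, Gm42418 33.7 TPM, Neat1 12.7 TPM, Tug1 8.31 TPM and Kcnq1ot1 0.0231 TPM, in the same order of genes.

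**Figure D1:**
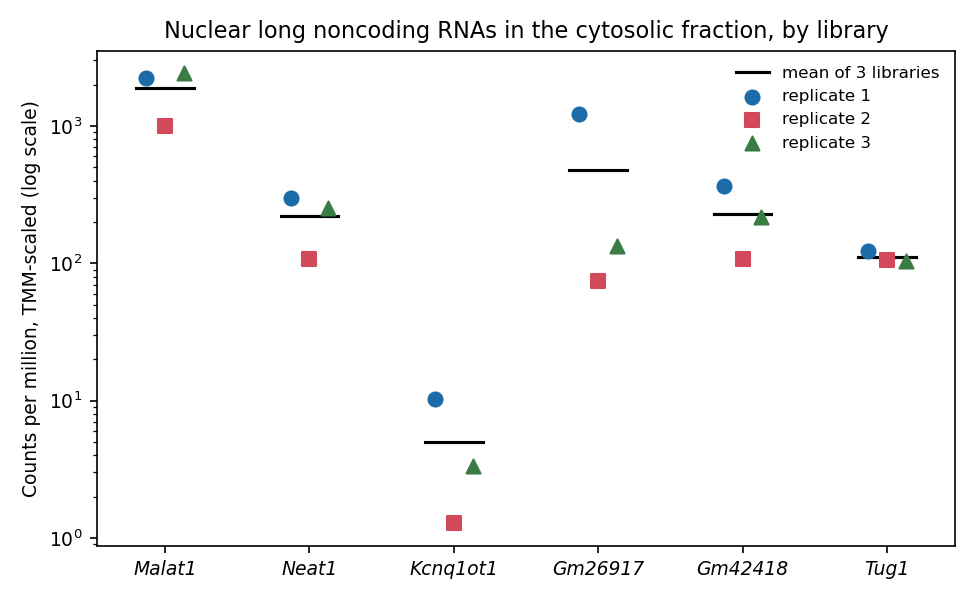
Levels of the 6 RNAs in each library, in CPM scaled by the TMM method, on a log axis; each point is 1 library and each black line the mean of 3. Replicate 2 is the lowest library for 5 of the 6 RNAs, and the 3 points of Tug1 lie within 1.17-fold of each other.

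Malat1 (ENSMUSG00000092341.3) is transcribed from the minus strand of chromosome 19, 5795690 to 5802672 in mm10, as a mainly unspliced RNA of 6983 bases. Its level was 417 TPM in replicate 1, 122 TPM in replicate 2 and 323 TPM in replicate 3, a mean of 287 ± 151 TPM (SD, n = 3). Replicates 1 and 3 were close to each other and replicate 2 was far below both. Malat1 stood at 46.0, 21.3 and 47.1 times the median protein-coding gene of at least 1 TPM in the same library, so it was an abundant RNA even in the lowest library. Its unspliced transcript, Malat1-201, supplied 229, 65.1 and 189 TPM of the gene's level. The rest was assigned to short annotated forms, whose share depends on the quantifier. It ranked 2nd, 3rd and 3rd by TPM among all long noncoding RNA genes, with Rmrp, the RNA component of RNase MRP, in first place each time. Malat1 alone held 0.229, 0.0956 and 0.247% of all counts.

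For comparisons of 1 gene between libraries, counts were scaled with TMM, a method that sets libraries to a common level over most genes. On that scale Malat1 had 2228, 1003 and 2421 CPM, and the highest library exceeded the lowest 2.41-fold. The spread between replicates that counting error does not give was estimated as the biological coefficient of variation (BCV). This estimate is drawn toward that of genes of like abundance, so it is not the gene's own spread alone. The BCV was 0.295 for Malat1, above 93.7% of the 13026 genes that passed the count filter.

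Neat1 (ENSMUSG00000092274.3) lies on the same strand of chromosome 19, 5824708 to 5845478, with 22035 bases between it and Malat1. Its level was 38.9, 12.4 and 35.9 TPM, a mean of 29.1 ± 14.5 TPM (SD, n = 3), or 4.29-, 2.16- and 5.25-fold the median protein-coding gene. The libraries fell in nearly the same pattern as for Malat1, with replicate 2 far below the other two. On the TMM scale Neat1 had 301, 107 and 252 CPM, a spread of 2.82-fold, and its BCV was 0.325. The Malat1 to Neat1 ratio, in TPM, was 10.7, 9.86 and 8.97, and in expected counts 7.41, 9.40 and 9.61. The libraries were thus ordered differently on these scales, and on both the ratio moved less between libraries than either RNA did.

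The ends of these 2 RNAs are alike in sequence. Neither long transcript ends in an ordinary poly(A) tail, and in both the end is known to be cut by RNase P ahead of a tRNA-like element and protected by a triple helix, in which U-rich stretches fold around an A-rich stretch. The annotated sequence around the U-rich and A-rich stretches is shown because they are the feature that Malat1 and the long form of Neat1 share. Both are on the minus strand in mm10, written 5′ to 3′ as DNA from the GENCODE M21 transcripts, at chr19:5795966-5796073 for Malat1 and chr19:5824708-5824805 for Neat1. Capitals mark the stretches of at least 10 bases that are identical in both.
Malat1: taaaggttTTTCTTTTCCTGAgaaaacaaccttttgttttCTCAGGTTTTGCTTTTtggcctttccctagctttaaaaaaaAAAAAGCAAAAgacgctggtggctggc
Neat1: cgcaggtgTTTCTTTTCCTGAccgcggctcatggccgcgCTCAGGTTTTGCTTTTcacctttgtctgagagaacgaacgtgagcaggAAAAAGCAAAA
The shared stretches are 13, 16 and 11 bases long. The annotated Neat1 transcript stops at the last of them, while annotated Malat1 runs on for 292 bases, the region that holds the tRNA-like element. Searched on the transcript strand, the stretch of 16 bases occurred in 2 of 141767 annotated transcripts. The other stretches occurred in 35 and 618 transcripts, and only Malat1 and Neat1 held all 3 stretches.

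Neat1 makes a long form, Neat1-201, of 20771 bases, which is needed to build paraspeckles, and a short polyadenylated form, Neat1-202, of 3004 bases, which does not build them on its own. The short form covers the 5′ part of the long form, so reads there are divided between the forms by the quantifier. The long form took 16.7, 7.84 and 6.53% of the gene's TPM in replicates 1, 2 and 3, a mean of 10.4 ± 5.52% (SD, n = 3). The short form took 77.4, 82.7 and 88.4%. The third highest, Neat1-203 of 1030 bases, took 3.44, 5.96 and 3.99%. By molecules the short form therefore led in every library.

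Between libraries the long form differed more than the short one. Neat1-201 had 183, 43.1 and 88.0 CPM on the TMM scale, a spread of 4.25-fold, and Neat1-202 had 115, 61.8 and 161 CPM, a spread of 2.61-fold. The long form was highest in replicate 1 and the short form in replicate 3, so the forms did not keep a fixed ratio. Long over short, in TPM, was 0.216, 0.0948 and 0.0739. The same ratio from the kallisto table was 0.188, 0.0823 and 0.0659. Replicate 1 was thus the highest in both tables, and replicates 2 and 3 stood close together.

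The spliced short transcripts annotated for Malat1 were assigned very unequally by the 2 quantifications. The unspliced Malat1-201 took 54.98, 53.31 and 58.47% of the gene's TPM but 95.75, 94.95 and 96.09% of its counts, since TPM divides by length and the other 3 transcripts are short. Malat1-204, of 656 bases, took 17.8, 29.4 and 23.0% of TPM in the gene's main table. Malat1-203, of 485 bases, took 13.5, 0 and 3.49% there, against 33.6, 33.3 and 33.2% in the kallisto table. Malat1-202, of 556 bases, took 13.70, 17.27 and 15.01%, against 8.501, 3.491 and 0%. The share of these short forms therefore depends on the quantifier, and Malat1 by counts is almost wholly its unspliced RNA.

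**Figure D2:**
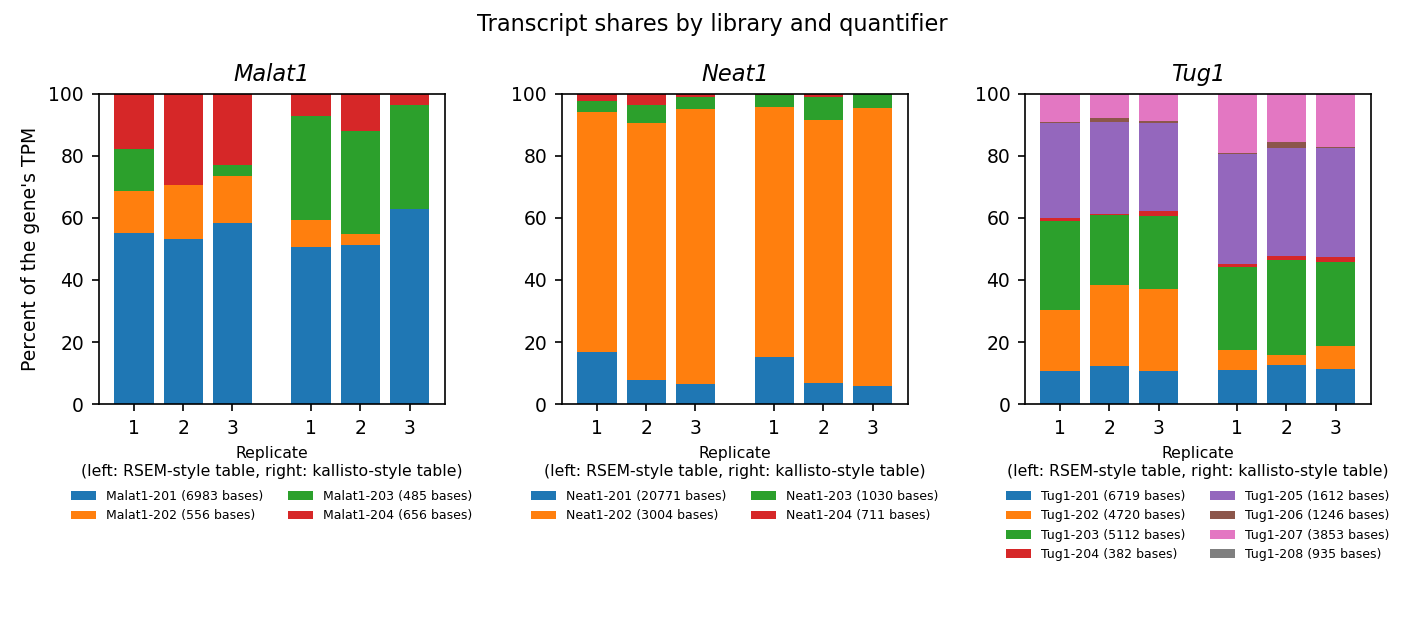
Share of each gene's TPM taken by its annotated transcripts, for Malat1, Neat1 and Tug1; each bar is 1 library, the 3 bars on the left of a panel come from the RSEM-style table and the 3 on the right from the kallisto-style table. The short Neat1-202 takes between 77.4 and 89.4% in every bar, while the shares of Malat1-203 and Tug1-202 differ between the tables.

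Kcnq1ot1 (ENSMUSG00000101609.2) is antisense to the potassium channel gene Kcnq1, on the minus strand of chromosome 7, 143203458 to 143296549, and GENCODE gives it a single exon of 93092 bases. RefSeq's record on GRCm38.p6 is shorter, at 83437 bases. Its length makes its TPM tiny even when counts are well above the floor. It had 675, 88 and 235 counts, with 95% Poisson intervals of 625 to 728, 70.6 to 108 and 206 to 267. The 3 intervals do not overlap. In TPM, deposited to 2 decimals, it stood at 0.08, 0.01 and 0.02, the lowest of the 6 RNAs in every library.

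On the TMM scale Kcnq1ot1 had 10.3, 1.28 and 3.33 CPM, an 8.01-fold spread with a BCV of 0.604. The kallisto table assigned it 1.72, 2.91 and 2.07 times as many counts, and the spread there was 4.61-fold. All 93092 bases lie inside Kcnq1 on the opposite strand. Kcnq1 itself had 5, 15 and 20 counts and did not pass the count filter. Whether the counting was stranded is not stated in any source used here, so reads of antisense partners may not be fully separated.

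Gm26917 (ENSMUSG00000097971.3) and Gm42418 (ENSMUSG00000098178.1) lie side by side on the plus strand of chromosome 17, at 39843013 to 39846341 and 39846958 to 39848788, 616 bases apart. Both are annotated as lincRNA genes, and the annotation gives no function for either. Their place goes against a plain reading of them as nuclear long noncoding RNAs. RefSeq lists Gm42418 as a synonym of Rn18s-rs5, a ribosomal RNA pseudogene of 1849 bases at 39846354 to 39848202, which begins 12 bases after the end of Gm26917 and shares 1245 bases with Gm42418. GENCODE M21 places a gene of type rRNA, CT010467.1, on the opposite strand over all 1831 bases of Gm42418.

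The sequence at their facing ends is shown because it borders and enters the ribosomal segment. Both stretches are on the plus strand of mm10, at chr17:39846262-39846341 for the last 80 bases of Gm26917 and chr17:39846958-39847037 for the first 80 bases of Gm42418, with no part marked in capitals.
Gm26917: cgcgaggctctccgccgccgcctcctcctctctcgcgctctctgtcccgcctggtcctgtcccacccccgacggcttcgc
Gm42418: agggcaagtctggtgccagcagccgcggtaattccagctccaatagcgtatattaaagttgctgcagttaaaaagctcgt
The first 1244 bases of Gm42418 are identical to the reverse complement of the main CT010467.1 transcript, starting at its base 606 of 1849. This follows from their overlap on opposite strands and adds nothing to it. Gm26917 is 69.1% G and C and Gm42418 60.2%, against 42.5% for Malat1-201, 47.3% for Neat1-201 and a median of 47.1% over 13612 lincRNA and antisense transcripts.

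Gm26917 stood at 336, 13.8 and 28.6 TPM in replicates 1, 2 and 3, a mean of 126 ± 182 TPM (SD, n = 3). The mean says little here, because replicate 1 was far above both others. On the TMM scale it had 1215, 74.6 and 134 CPM, and the highest library exceeded the lowest 16.3-fold. Its BCV of 0.830 was above 99.95% of the genes that passed the filter. Among long noncoding RNA genes it ranked 3rd, 23rd and 16th by TPM. Its single-exon transcript, Gm26917-202 of 3329 bases, took 80.2, 74.9 and 77.7% of the gene's TPM, and all of it in the kallisto table. The rest went to Gm26917-201, of 869 bases.

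Gm42418 stood at 163, 30.5 and 74.3 TPM, a mean of 89.4 ± 67.7 TPM (SD, n = 3). On the TMM scale it had 364, 107 and 218 CPM, a spread of 3.41-fold with a BCV of 0.367. Its libraries were ordered as for Gm26917 but stood much closer together. The Gm26917 to Gm42418 ratio, in expected counts, was 3.34, 0.699 and 0.612, so replicate 1 held an excess of the upstream gene that the others did not. The kallisto table gave the ratio as 5.53, 1.16 and 0.942.

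CT010467.1 had 330, 133 and 218 CPM, a spread of 2.47-fold, in the same order of libraries as Gm42418. Since all of Gm42418 overlaps CT010467.1 on the opposite strand, the split of reads between them is uncertain, and their sum was 694, 240 and 437 CPM. The sum spread 2.89-fold, so the order of libraries does not rest on the split. The tables did disagree on it. The main CT010467.1 transcript had 18099, 9031 and 15053 expected counts in the gene tables' quantification, against 46833, 19470 and 33509 estimated counts in the kallisto table. AY036118, a further lincRNA gene on the opposite strand within Gm42418, had 0 counts in all 3 libraries. How much ribosomal RNA the depletion left in each library was not measured, and its part in these levels was not tested.

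**Figure D3:**
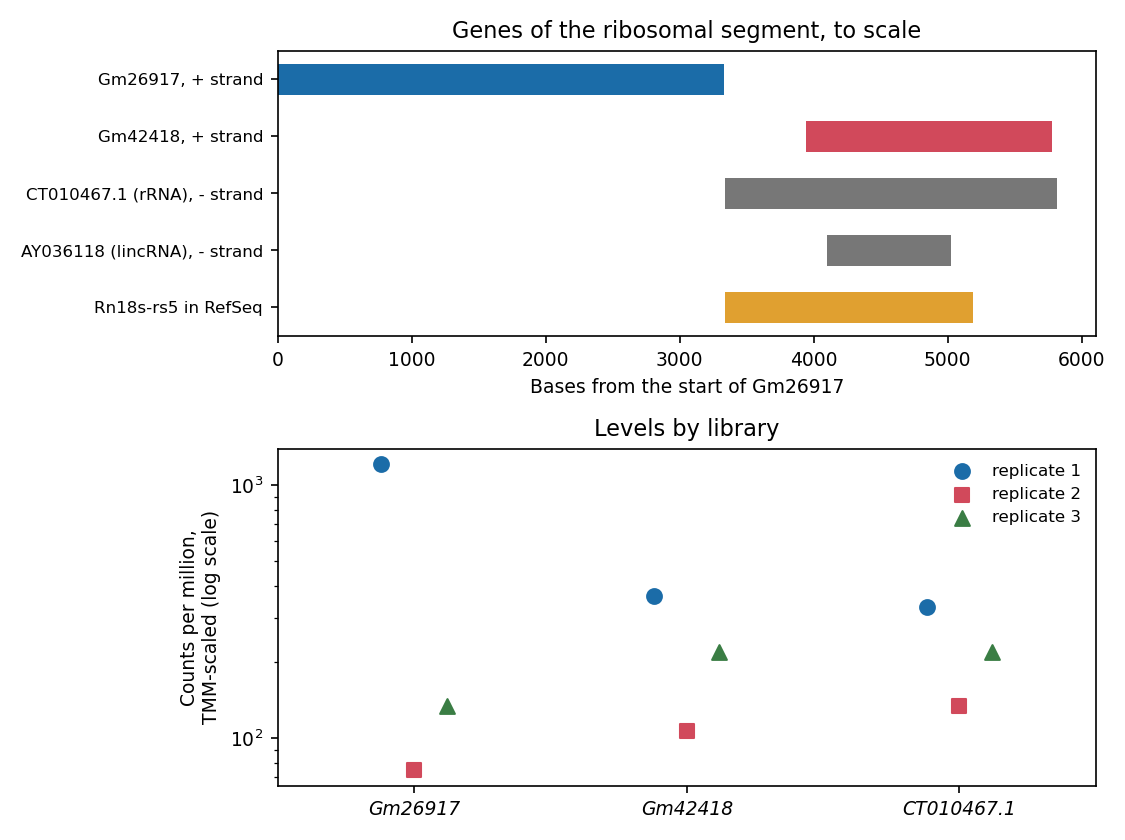
Upper panel, annotated genes of the chromosome 17 segment to scale, by distance in bases from the start of Gm26917; lower panel, TMM-scaled CPM (log axis) of 3 of them, 1 point per library. Replicate 1 is the highest for all 3 genes, and its gap to the others is widest for Gm26917, at 1215 CPM against 74.6 and 134 CPM in replicates 2 and 3.

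Tug1 (ENSMUSG00000056579.18) lies on the minus strand of chromosome 11, 3639785 to 3649673, and differed from the other 5 RNAs in how even it was. It had 8051, 7254 and 7371 counts, which are 122, 106 and 104 CPM on the TMM scale. The highest library exceeded the lowest 1.17-fold, and its BCV of 0.0984 was above only 31.4% of the genes that passed. In TPM it stood at 23.7, 12.9 and 15.2, a mean of 17.2 ± 5.70 TPM (SD, n = 3). The wider spread in TPM, 1.84-fold, goes with the median protein-coding gene, which stood at 9.06, 5.74 and 6.85 TPM in the same libraries. Tug1 stood at 2.61, 2.24 and 2.22 times that median. The Neat1 to Tug1 ratio, in TPM, was 1.64, 0.963 and 2.37, so Neat1 stood at about the level of Tug1 in replicate 2 alone.

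Tug1 transcripts with retained introns are known, from human cells, to be held in the nucleus, which makes the annotated introns of interest in a cytosolic extract. The first lies at chr11:3643180-3644771, 1592 bases, and is kept in Tug1-201. Of the transcripts that span it, 15.8, 17.8 and 15.6% by TPM kept it in replicates 1, 2 and 3, a mean of 16.4 ± 1.22% (SD, n = 3). The kallisto table gave 18.6 ± 1.62% (SD, n = 3), so the tables differ by little here.
The second lies at chr11:3645524-3646556, 1033 bases, and is kept in Tug1-207. Its retained share was 13.5, 11.6 and 12.9%, a mean of 12.6 ± 0.953% (SD, n = 3), but 27.46 ± 2.499% (SD, n = 3) in the kallisto table. Between libraries the shares stayed within a few points of each other in each table, while the tables differed from each other for the second intron.

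Transcripts with both introns removed made up 48.4, 48.7 and 49.8% of the gene's TPM, and 33.2, 33.8 and 34.6% in the kallisto table. The single highest transcript by mean TPM was Tug1-205, a single exon of 1612 bases, with 30.5, 29.5 and 28.5%, ahead of Tug1-203 with 28.9, 22.6 and 23.7% and Tug1-202 with 19.4, 26.1 and 26.1%. Tug1-205 covers the 483 bases that Tug1 shares with the start of Morc2a, a chromatin-silencing ATPase gene on the opposite strand. Morc2a had 37.5, 39.2 and 43.8 CPM, and without strand reads in those bases cannot be told apart.

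Of the 6 RNAs, 5 had a highest library over 2-fold above the lowest, beside 7.09% of the 13026 genes that passed the count filter. That share was 0.873% among the 6411 genes with a mean of at least 1000 counts, the range of every member but Kcnq1ot1. It was 21% among 267 lincRNA genes and 27.8% among 259 antisense genes, the biotypes to which the 6 RNAs belong, and 4.38% among protein-coding genes, with no matching for abundance. The median spread was 3.12-fold for the 6 RNAs, against 1.19-fold over all genes that passed, 1.49-fold for lincRNA genes and 1.501-fold for antisense genes. Gm26917 and Gm42418, both at the ribosomal segment of chromosome 17, are among the 5. These counts and those by library below are thus not of nuclear RNAs alone. Since the 6 genes were chosen with their levels known, nothing particular to them is read from these counts. Over all genes that passed, a chi-square test with Benjamini-Hochberg adjustment called 62.5% as differing between libraries by more than counting error, and no result on the 6 RNAs is drawn from it.

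Replicate 2 was the lowest library for 5 of the 6, beside 32.7% of genes. That share was 31.3% of genes with a mean of at least 1000 counts, 40.4% of lincRNA genes, 36.7% of antisense genes and 31.5% of protein-coding genes. Replicate 1 was the highest library for 5 of the 6, beside 31.9% of genes. Malat1 was highest in replicate 3 and Tug1 lowest there, by a small margin, while by TPM and by total counts Tug1 was lowest in replicate 2 too. The over-2-fold count rests on replicate 2 in part. Without replicate 2 it was 2 of 6, Kcnq1ot1 and Gm26917, beside 4.48% of genes. Without replicate 1 it was 4 of 6, beside 3.59% of genes, and without replicate 3 it was 5 of 6, beside 3.49%.

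**Figure D4:**
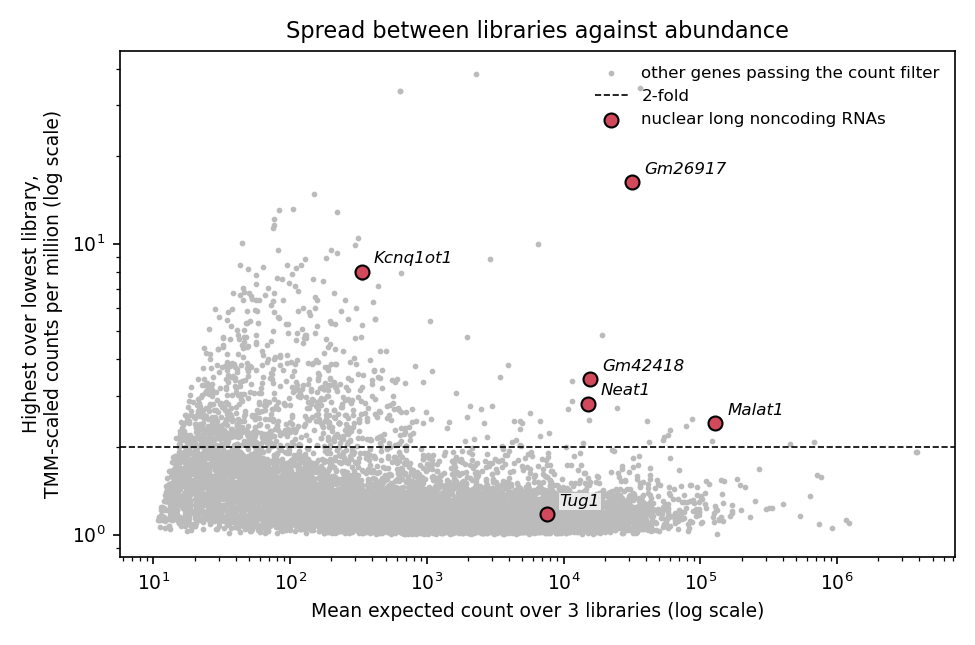
Highest over lowest library, in TMM-scaled CPM, against the mean expected count, both on log axes, for the genes that passed the count filter; red points are the 6 RNAs and the dashed line marks 2-fold. Malat1, Neat1, Gm42418 and Gm26917 lie above most genes of like abundance, and Tug1, at 1.17-fold, lies within them.

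RNAs known mainly from the nucleus were looked up in a list that also held silent genes. Of 15 listed genes, 1 of which, Gm12878, is annotated as a processed pseudogene and not as a long noncoding RNA, 5 had no counts in any library, Gm12878 among them, and 8 passed the filter. Of those 8, 5 were lowest in replicate 2 and 4 spread over 2-fold, with a median of 1.89-fold. Xist, which coats the inactive X chromosome, had 199, 19.9 and 71.1 CPM, the widest spread at 9.99-fold. Sex was not collected, and a difference in sex between libraries was not tested as a source of that spread. Lncpint, a p53-linked RNA that binds Polycomb proteins, had 10.9, 2.53 and 8.85 CPM, a 4.29-fold spread. Peg13, an imprinted RNA, was flat at 28.2, 29.1 and 27.1 CPM. Firre and Airn, named after their values were seen, were the other listed genes over 2-fold, at 2.12- and 2.27-fold.

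Long noncoding RNAs known mainly from the cytoplasm gave 11 found genes of 15 symbols, 9 of which passed the filter. None of the 9 spread over 2-fold, 2 were lowest in replicate 2, and the median spread was 1.34-fold. 2900097C17Rik, the mouse counterpart of the Pumilio-binding RNA NORAD, had 455, 468 and 445 CPM, within 1.05-fold. Gas5, a snoRNA host gene, had 17.9, 18.3 and 14.8 CPM, and Zfas1, another snoRNA host, had 10.47, 9.104 and 6.815 CPM. Summed, this list gave 497, 509 and 480 CPM, most of it from 2900097C17Rik alone. The 6 RNAs gave 4240, 1397 and 3133 CPM. Of that, Gm26917 supplied 1215, 74.6 and 134 CPM and Gm42418 364, 107 and 218 CPM. Both lie at the ribosomal segment of chromosome 17, so the sum is not one of nuclear RNAs alone. The list of RNAs known mainly from the nucleus gave 246, 56.4 and 114 CPM. Xist carried most of that last sum in replicates 1 and 3 but not in replicate 2. The other 14 genes of its list gave 46.9, 36.5 and 43.4 CPM, a spread of 1.29-fold. The difference between the lists was not tested.

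Genes annotated as snRNA were also mostly lowest in replicate 2. They were taken by that annotation alone, and whether each belongs to the spliceosome was not checked. Of the 22 snRNA genes that passed, 95.5% were lowest there and 90.9% spread over 2-fold, and their sum was 166, 67.2 and 125 CPM. Reads of genes alike in sequence may be divided among them by the quantifier, so the 22 may not be separate observations. Rnu1b1 and Rnu1b2, named after their values were seen, did not pass but had equal counts in every library, 3.06, 1.51 and 5.55. From a list of spliceosomal RNAs, 7SK and 2 snoRNAs, 3 of the 11 genes found passed, and all 3 spread over 2-fold. Rnu2-10, a U2 RNA gene, had 14.4, 7.11 and 9.76 CPM and Rnu1a1, a U1 RNA gene, had 4.72, 1.95 and 3.34 CPM, both lowest in replicate 2. The third, Rn7sk, the 7SK RNA that holds the elongation factor P-TEFb, ran otherwise on the TMM scale, at 6413, 9773 and 13362 CPM, lowest in replicate 1. By TPM it stood at 36384, 35222 and 61838, lowest in replicate 2 by a small margin. The amount of nuclear RNA in each extract was not measured apart from these RNAs, and its part in the spread was not tested.

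**Figure D5:**
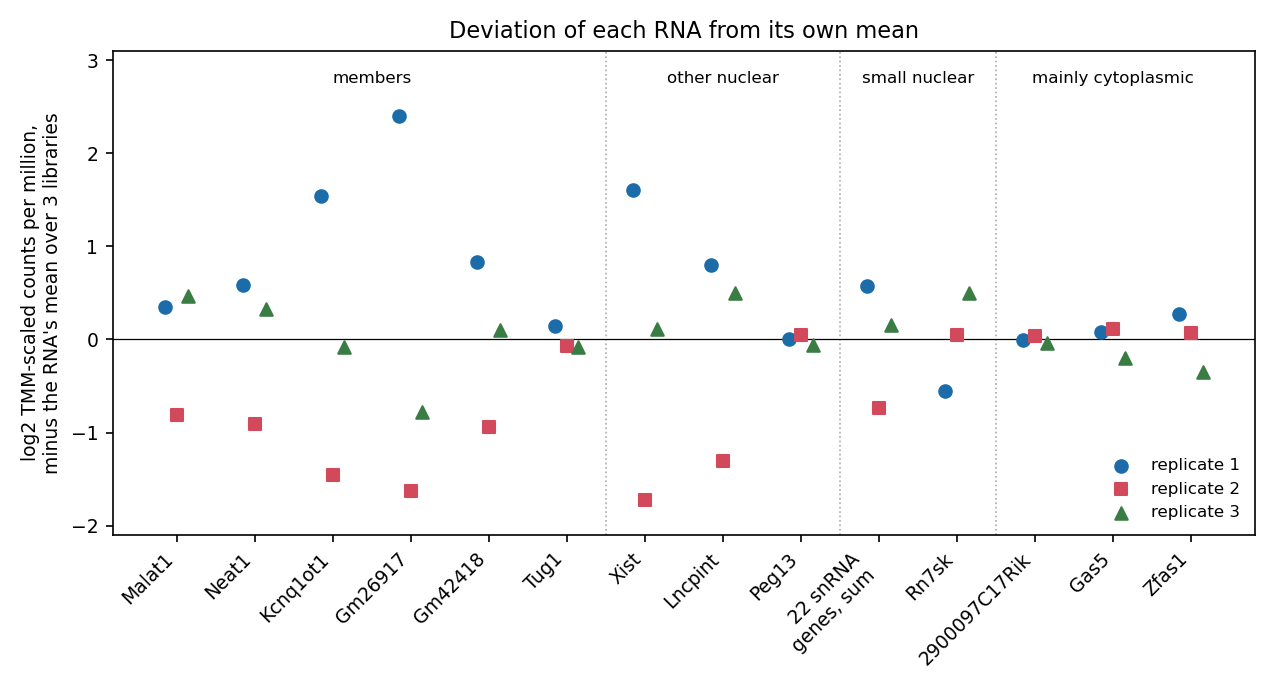
Deviation of each RNA from its own mean over the 3 libraries, in log2 TMM-scaled CPM, for the 6 RNAs, other nuclear RNAs, small nuclear RNAs and mainly cytoplasmic RNAs; each point is 1 library. Replicate 2 lies lowest for Malat1, Neat1, Kcnq1ot1, Gm26917, Gm42418, Xist, Lncpint and the summed snRNAs, while Tug1, Peg13, 2900097C17Rik and Gas5 keep their points close together.

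The messenger RNAs of proteins that build speckles and paraspeckles stood close together in the 3 libraries. All 17 of these genes passed the filter, none spread over 2-fold, 7 were lowest in replicate 2, and the median spread was 1.098-fold. Hnrnpk, an RNA-binding protein needed for paraspeckles, had 315, 304 and 310 CPM. The speckle scaffold genes Srrm2 and Son had 543, 524 and 547 CPM and 390, 341 and 398 CPM.

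Genes that lie near the 6 RNAs were mostly even between libraries. Of 23 symbols 18 were found, 1 of which, Lars2, lies on another chromosome, and 14 passed the filter. Of those 14, 6 were lowest in replicate 2 and 1, Smtn, named after its values were seen, spread over 2-fold, with lower counts than most. Frmd8, near Neat1, spread 1.09-fold. In the Kcnq1 domain, the cell cycle inhibitor gene Cdkn1c had 34.2, 48.5 and 29.3 CPM in replicates 1, 2 and 3. In the same domain the tetraspanin gene Cd81 had 87.7, 70.1 and 80.5 CPM and the histone chaperone gene Nap1l4 52.7, 49.2 and 50.7 CPM. A link between the levels of these genes and Kcnq1ot1 was not tested. The small RNA genes annotated inside Malat1, Neat1, Kcnq1ot1 and Tug1 had at most 11.7 counts in any library, for one inside Tug1.

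Likeness of pattern was measured as the root mean square difference of log2 CPM, each gene centred on its own mean, over 3 libraries, among genes with a mean of at least 1000 counts. With so few libraries many genes can look alike by this measure. The genes close to Malat1 included Neat1, at 0.17, and the phosphate transporter gene Slc20a1, at 0.22. Neat1 was nearest to Malat1, at 0.17, then to Gm42418, at 0.20, and CT010467.1, at 0.22. Gm42418 was nearest to Gm14636, an X-linked processed transcript with 100, 26.1 and 49.2 CPM, at 0.12. CT010467.1 and Neat1 followed for Gm42418, each at 0.20.

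Kcnq1ot1 and Gm26917 had few genes like them. Both were nearest to Xist, at 0.19 and 0.70, then to Gm14636, at 0.44 and 1.00, and to Gm42418, at 0.52 and 1.11. Tug1, being flat, had neighbours at under 0.01, Fam133b, Mgat4a and the RNA-editing enzyme gene Adar.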

How the data were processed

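Per the file headers, the deposited gene and transcript tables give expected counts, TPM and, per transcript, the percent of the gene's TPM, in columns named as RSEM writes them; a second deposited transcript table gives estimated counts and TPM in columns named as kallisto writes them. Deposited description files name mm10 and GENCODE M21. Aligner, tool versions and strand setting are not stated in any source used here. FPKM and interval columns were not used. Rows that are no annotated gene, 0.260, 0.0933 and 0.0577% of counts, were left out of library sizes.

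Expected counts were rounded, filtered with filterByExpr and scaled by TMM in edgeR 4.0.16 (R 4.3.3), which left 13026 genes and gave the tagwise BCV from an intercept-only design. A chi-square test per gene set counts against effective library sizes, with Benjamini-Hochberg adjustment at 0.05; it was tested on simulated data. It compares libraries, not conditions, and measures only how far these samples differ, which may be technical. DESeq2 1.42.0 size factors were an alternative. The rest used Python 3.11.15 with numpy 2.4.6, pandas 2.3.3 and scipy 1.17.1. Sequences came from the GENCODE M21 transcripts, and 5 of the 6 genes matched a RefSeq record by symbol or synonym. A minimum of 10 bases was set for shared stretches.

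The 6 genes, the lists and the rule for naming genes were chosen with earlier results of these data known. Named are the 6 genes, the 3 genes nearest in pattern to each, the 3 highest of each list by mean TPM, genes that overlap a member, and each member's 3 highest transcripts and known long and short forms. Some genes that the rule names are not reported here.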

Additional observations from a re-analysis of the deposited data

How the results depend on the processing

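The number of the 6 RNAs that were lowest in replicate 2 was 5 with TMM, DESeq2 size factors, kallisto counts and no filter before TMM. It was 6 with total counts, TPM as deposited, and TPM rescaled to protein-coding genes of the nuclear genome. The number that spread over 2-fold was 5 under every planned setting, 1.5-fold included. Leaving out 1 library at a time, added after the data were seen, gave 2 to 5, and 2 came without replicate 2. Genes whose counts differed between libraries numbered 8136, against 8108 with DESeq2 size factors, 8721 with no filter, 9242 with kallisto counts and 5662 to 6123 with 1 library left out. Of 70 single-gene values recomputed, 53 moved by less than 1 SD and 17 by more, 6 of them from rescaling TPM. That SD comes from the same 3 libraries, so a value with 1 library left out could not move by 1 SD. Such values are among the 53 and say nothing on stability. Gm26917 without replicate 1, at 21.2 TPM against 126 TPM, counted as moving by less than 1 SD. Gm26917 spread 24.3-fold by TPM, against 16.3-fold by TMM. No paired analysis was possible because the labels give 1 group. Depth limits Kcnq1ot1 most, at 88 counts in replicate 2, and the Neat1 and Tug1 transcript shares rest on reads that forms share.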
